A study of Rattus norvegicus with 3 samples.

Results

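Cadherins and protocadherins are membrane proteins that join cells to one another, and 59 of the 9084 annotated Seh1 peaks of oligodendrocyte progenitor cells (OPC) had a gene of these families as their nearest gene. The peaks were taken from the authors' deposited annotation by gene name: Cdh or Pcdh followed by a digit, or a name beginning with Pcdha, Pcdhb, Pcdhg or Celsr. They fell to 30 genes, with 10 peaks at 9 clustered protocadherins, 16 peaks at 8 other protocadherins and 33 peaks at 13 cadherins. No peak had a Celsr gene as its nearest gene.

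Seh1 is a protein of the nuclear pore complex, and its sites on chromatin were mapped by ChIP-seq, which sequences the DNA that an antibody to the protein pulls down. Immature oligodendrocytes (iOL) were cells treated with triiodothyronine (T3), the thyroid hormone that drives differentiation, at 60 nM for 1 day after PDGF-AA, bFGF and NT3 had been taken out of the medium. OPC were grown with PDGF-AA, CNTF, bFGF and NT3 and without T3. Both were cultured on poly-D-lysine from the forebrain of Sprague Dawley rats at postnatal day 1 to 2, and no genetic change is labelled. Each stage had 1 Seh1 library, and 1 IgG library of iOL was not analysed here. The iOL list held 6704 peaks of 209 bp, without gene names, and the OPC list 9117 peaks of 205 bp. Since neither stage had a replicate, no test was made, and what is compared is the peak lists and not the stages. Per the file header, the IgG of iOL stood as control for the OPC peaks. Intervals are exact binomial (Clopper-Pearson) 95% intervals and cover counting error only. The depth is unknown, as no read totals came with the lists. The files hold no expression values, so the labelled cell type could not be checked against markers, and a nearest gene is a position and not a shown target.

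Classical cadherins bind the same cadherin on a neighbouring cell in the presence of calcium, and hold the actin cytoskeleton through catenins. The clustered protocadherins lie in tandem alpha, beta and gamma arrays. In the alpha and gamma arrays each gene contributes a large variable exon with its own promoter, which is spliced to constant exons shared by the array, while beta genes have a single coding exon. In the mouse, CTCF and cohesin act in the choice among these promoters, and the chosen proteins give a neuron a surface identity.

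In the gamma array 4 peaks lay in variable exons downstream of a start of transcription (TSS), at Pcdhga1, Pcdhga5, Pcdhga8 and Pcdhga9. The 250 bases before the TSS of these genes are shown because the peaks lay downstream of the same starts. They come from RefSeq on build GRCr8 (chromosome 18, plus strand), whereas the peaks are on build rn6. Capitals mark GCTGTTCAC, a run of letters that was picked because all 4 promoters hold it.

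Pcdhga1: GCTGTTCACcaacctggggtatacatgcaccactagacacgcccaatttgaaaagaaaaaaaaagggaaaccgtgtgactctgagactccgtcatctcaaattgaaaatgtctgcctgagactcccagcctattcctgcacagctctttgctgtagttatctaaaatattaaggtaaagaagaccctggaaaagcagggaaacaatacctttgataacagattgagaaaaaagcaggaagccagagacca
Pcdhga5: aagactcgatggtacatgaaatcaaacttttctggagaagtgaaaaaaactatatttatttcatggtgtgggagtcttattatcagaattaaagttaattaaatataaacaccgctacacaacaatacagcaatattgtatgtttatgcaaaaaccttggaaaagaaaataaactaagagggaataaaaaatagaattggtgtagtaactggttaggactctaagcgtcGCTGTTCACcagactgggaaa
Pcdhga8: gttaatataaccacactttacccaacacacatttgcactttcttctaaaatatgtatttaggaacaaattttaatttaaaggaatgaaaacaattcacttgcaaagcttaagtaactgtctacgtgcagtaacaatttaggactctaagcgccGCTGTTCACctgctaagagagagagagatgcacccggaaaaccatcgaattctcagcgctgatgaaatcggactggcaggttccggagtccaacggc
Pcdhga9: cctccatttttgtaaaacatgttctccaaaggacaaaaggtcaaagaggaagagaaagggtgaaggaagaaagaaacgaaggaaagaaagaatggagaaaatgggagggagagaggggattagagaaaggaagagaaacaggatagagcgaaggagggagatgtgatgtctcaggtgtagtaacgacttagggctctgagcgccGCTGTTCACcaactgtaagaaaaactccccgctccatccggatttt

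These windows run on GRCr8 from 29738389 to 29738638 for Pcdhga1, from 29770690 to 29770939 for Pcdhga5, from 29804863 to 29805112 for Pcdhga8 and from 29815595 to 29815844 for Pcdhga9. In Pcdhga5, Pcdhga8 and Pcdhga9 the run began 21, 97 and 46 bp before the TSS, and in Pcdhga1 250 bp before it. The same letters were found in 3 of the 11 other gamma promoter entries, Pcdhga7, Pcdhga10 and Pcdhga12, none of which had an OPC peak. Their 30-base stretches around the run are given for comparison.

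Pcdhga7: gactctgcgtgccGCTGTTCACcaaccatg
Pcdhga10: gactctgagcgccGCTGTTCACctaccagg
Pcdhga12: gactctgagcgccGCTGTTCACccacgggg

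Searched on both strands, GCTGTTCAC was present in 7 of 35 clustered protocadherin promoter entries, in 0 of 19 beta entries, in 0 of 11 other protocadherin entries and in 0 of 16 cadherin entries. It overlaps CGCT where a C precedes it, as in 6 of the 7. Over all 33469 RefSeq promoters of the same length 84 held it, 0.251%. Since the run was picked from the promoters with a peak, their own matches carry no evidence, and the promoters without a peak hold it too. The shorter CGCT, known from the mouse as the centre of a conserved box in clustered protocadherin promoters, was found in 77.1% of clustered, 81.8% of other protocadherin and 75% of cadherin promoters, against 55.1% of all promoters. CCCTC, letters from the core of the CTCF motif, was found in 22.9% of clustered promoters, 81.8% of other protocadherin promoters and 62.5% of cadherin promoters, against 59.2% of all.

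Letters bound by factors of this lineage were counted as well, and each of these shares rests on 35 clustered, 11 other protocadherin and 16 cadherin promoters. The E-box CANNTG, the general letters bound by helix-loop-helix factors such as Olig2, was present in 62.9% of clustered, 45.5% of other protocadherin and 68.8% of cadherin promoters, against 65.5% of all. Of its forms, which CANNTG includes, CAGCTG was present in 2.86%, 0% and 12.5% of these groups in that order, against 12% of all, and CAGATG in 8.57%, 9.09% and 12.5%, against 14%. AGGTCA, the letters bound by thyroid hormone receptors, was present in 11.4% of clustered, 0% of other protocadherin and 18.8% of cadherin promoters, against 14.1% of all. Of the 30 genes with a peak, 19 had a promoter entry.

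Of the clustered protocadherins, the gamma genes had the only peaks within 500 bp of an annotated TSS. The peak in exon 1 of 3 of Pcdhga1 (chr18:30808469-30808673 on rn6, 167 bp downstream of the TSS) had a score of 11.5. This was the highest score among the 59 peaks, and 2.72% of the annotated OPC list reached it. The score is the authors' caller's value for each peak, undefined in the file header. The lower scores lie on steps of 0.638, and the step was not checked on the higher ones.

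The other gamma peaks lay in exon 1 of 3 as well. They stood at 315 bp in Pcdhga8 (chr18:30875086-30875290, score 8.94), at 358 bp in Pcdhga9 (chr18:30885861-30886065, score 7.66) and at 2116 bp in Pcdhga5 (chr18:30842714-30842918, score 7.66). The alpha array had 1 exon peak, 1468 bp into exon 1 of 4 of Pcdha2 (chr18:29961438-29961642, score 7.02). Apart from those of Pcdhga1 and Pcdhga8, these scores were at or below the list median of 7.66.

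Among the 3 gene groups, the clustered protocadherins held all peaks of the exon class, which leaves out 5' UTRs. These made up 5 of 10 clustered peaks (50%, interval 18.7 to 81.3%), 0 of 16 peaks at other protocadherins and 0 of 33 at cadherins. Over all 59 the share was 8.47% (2.81 to 18.7%), against 6.79% of the 9025 other OPC peaks and a background of 6.8% over the annotated list. All 5 lay in exon 1, against 154 of 613 exon peaks of other genes (25.1%). In the alpha and gamma arrays exon 1 is the long variable exon, and exon lengths were not measured. Variable exons of an array resemble one another in sequence, and the sources used here do not say how reads with several equal matches were placed.

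The remaining clustered peaks were annotated outside exons. Upstream of the alpha array, Pcdha1 had a peak at -68.7 kb in an L1_Rat1 repeat (score 7.66). Pcdhac2 had one in an RMER10A long terminal repeat (29.9 kb, score 5.75). It was annotated to intron 3 of 3 of a transcript other than the one that gave the TSS. Pcdhb2 had a pair 8.99 kb apart, at -61.9 kb in L1_Rn (score 7.66) and at -52.9 kb in RNHAL1 (score 6.38). Pcdhb12 had 1 at 18.9 kb downstream (score 7.02), outside annotated repeats. By the deposited annotation, no peak named for a beta gene lay nearer than 18.9 kb to that gene's TSS. Other beta genes may lie closer to these peaks. On GRCr8 the promoter entries of Pcdhb12 and Pcdhb14 begin at 29413506 and 29431637, and no peak was named for Pcdhb14. At this spacing the Pcdhb12 peak would lie close to the TSS of Pcdhb14. The entries of Pcdhb1 and Pcdhb2 begin at 29187598 and 29279754, and no peak was named for Pcdhb1. At this spacing both Pcdhb2 peaks would lie nearer to Pcdhb1 than to Pcdhb2. The spacing of these genes on rn6 was not measured.

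**Figure D1:**
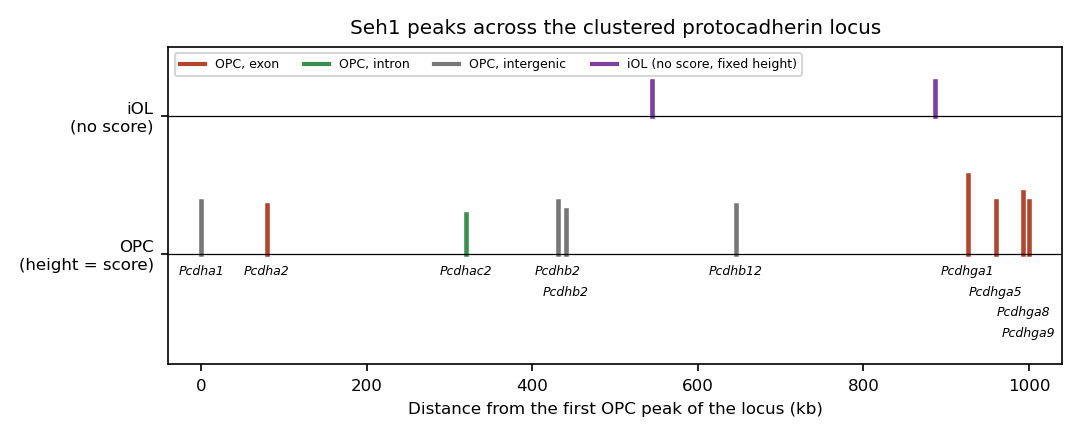
Positions of Seh1 peaks across the clustered protocadherin locus, in kb from the OPC peak nearest the alpha end. The upper line holds the 2 iOL peaks, at 545 and 887 kb, drawn at a fixed height, and the lower line the 10 OPC peaks, drawn with a height in proportion to the score and coloured by annotation class. The 4 gamma exon peaks stand together between 926 and 1000 kb.

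The locus from the Pcdha1 peak to the Pcdhga9 peak covered 1 Mb of chromosome 18 (29882278 to 30886065). It held 2 iOL peaks and 10 OPC peaks, and each of these OPC peaks was named for a clustered protocadherin. In iOL this was 1.99 peaks per Mb, against 2.4 over all chromosomes, and in OPC 9.96 per Mb, against 3.26. The ends of the locus were set by OPC peaks, which raises its OPC density. Of 9084 windows of this length beginning at an OPC peak, 21.7% held as many OPC peaks, with a median of 6 and a maximum of 25. The OPC count of the locus is thus met by many other windows.

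Neither iOL peak of the locus overlapped an OPC peak. The one at chr18:30769080-30769288 lay 39.4 kb from the Pcdhga1 peak, and the one at chr18:30427086-30427294 lay 101 kb from the Pcdhb12 peak. Another iOL peak lay just outside, 6.49 kb before the Pcdha1 peak. No gamma exon peak had an iOL peak nearer than 39.4 kb.

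The other protocadherins are each a gene with its own TSS and no shared constant exons. Their peaks lay far from the nearest TSS of the deposited annotation, whose gene set is unknown. All 16 of their peaks were annotated as intergenic (interval 79.4 to 100%). None lay nearer than 16.5 kb to an annotated TSS, and the median distance was 1720 kb. Pcdh19, a neuronal adhesion gene whose human counterpart is mutated in an epilepsy of females, had 5 peaks on chromosome X, the most of any member gene. They lay 1.67, 1.86, 2.06, 3.35 and 3.46 Mb downstream of its TSS, with scores of 7.66, 10.2, 6.38, 7.02 and 9.58 in that order. The 10.2 and 9.58 peaks were in RatSatRep2, a rat satellite repeat, and the other 3 in LINE-1 copies (L1_Rn or RNHAL1).

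Pcdh7 and Pcdh9 belong to the delta protocadherins, which are known from the nervous system, and had 4 peaks on chromosome 14 and 2 on chromosome 15. Those of Pcdh7 lay at -1.9 Mb (L1_Rn, score 8.3), -0.866 Mb (L1_Rat3, 7.66), -16.5 kb (RNLTR4a, 8.94) and 1.78 Mb (a CA repeat, 7.02). Those of Pcdh9 lay at -0.3 Mb (L1_Mur1, 8.94) and 2.77 Mb (RatSatRep2, 9.58). The -16.5 kb peak of Pcdh7 (chr14:55097990-55098194) was the nearest to a TSS in this group.

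The remaining 5 genes had 1 peak each, at absolute distances of 58.4 kb (Pcdh8) to 2.75 Mb (Pcdh20). Pcdh15, a component of the tip links of inner ear hair cells that is also expressed in mouse OPC, had the group's single peak outside annotated repeats, in a CpG island at -399 kb (score 7.02). Pcdh17 had a peak at 139 kb (Lx2, 8.3). The Pcdh18 peak, 314 kb downstream in RNLTR4b, had a score of 5.11, the lowest of the annotated OPC list.

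**Figure D2:**
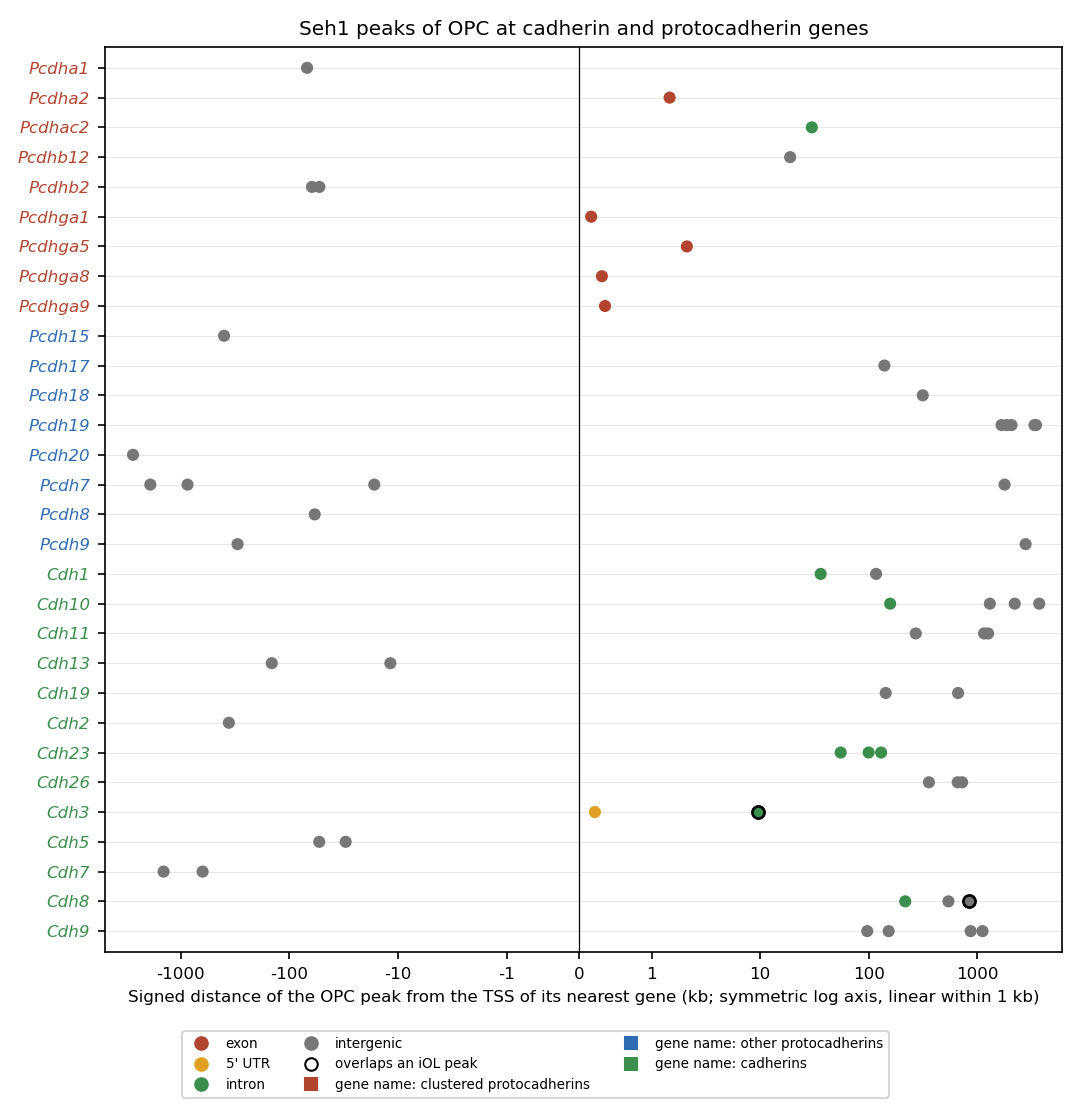
Signed distance in kb of each of the 59 OPC peaks from the TSS of its nearest gene, on a symmetric log axis that is linear within 1 kb, negative upstream. Genes run down the page by group; point colours give the annotation class, and a black ring marks the 2 peaks that overlap an iOL peak. Exon and 5' UTR points of the gamma genes, Pcdha2 and Cdh3 lie near 0, while the points of other protocadherins lie far to either side.

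Among the cadherins, Cdh3, the gene of P-cadherin, an epithelial cadherin, had the peak nearest to a TSS. It lay in the 5' UTR, in exon 1 of 16, at 218 bp (chr19:38669674-38669878, score 7.02). A second Cdh3 peak in intron 2 of 15 (chr19:38679034-38679238, 9578 bp from the TSS, score 7.02) overlapped the iOL peak at chr19:38678931-38679139 by 106 bp. Another iOL peak, at chr19:38664085-38664293, lay 5.59 kb from the 5' UTR peak. Its neighbour Cdh1, the gene of E-cadherin, had an intron peak at 36 kb with a score of 10.2, in intron 2 of 15 and in a PB1D10 SINE repeat, and another at 117 kb (B3, score 7.02).

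Cdh8, a type II cadherin of neurons, had the other shared peak. It lay 830 kb downstream in an L1_Rn copy (chr19:6862264-6862468, score 8.3) and overlapped the iOL peak at chr19:6862184-6862392 by 129 bp. The remaining Cdh8 peaks, in an L1_Rat1 copy of intron 5 of 12 at 217 kb (score 7.02) and in RNHAL1 at 541 kb (score 7.66), had no iOL peak nearer than 290 kb.

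Several type II cadherins had peaks far downstream. The peaks of Cdh10, on chromosome 2, stood in RatSatRep2 in intron 2 of 11 at 157 kb (score 8.94), in RatSatRep2 at 1.3 Mb (8.3), in L1_Rn at 2.2 Mb (7.66) and in RNHAL1 at 3.7 Mb (7.66). Those of Cdh9, on the same chromosome, stood at 96.7 kb (Lx4B, 9.58), 152 kb (RNHAL1, 6.38), 866 kb and 1.11 Mb (RatSatRep2, 7.66 each). The 3.7 Mb distance was the longest of the 59.

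Cdh11, a type II cadherin also known from bone, had a peak at 271 kb (L1_Rn, score 10.2) and others at 1.15 Mb (RNERVK9-int, 6.38) and 1.25 Mb (L1_Rat1, 7.02). Cdh7 had both of its peaks upstream, at -0.629 Mb (ERVB4_6-I_RN, 7.66) and -1.44 Mb (Lx2, 8.3). Cdh19 had peaks at 143 kb (L1_Rn, 7.02) and 663 kb (RNLTR4d_I, 6.38). On GRCr8, Cdh12 and Cdh18 follow Cdh10 in gene order, Cdh4 follows Cdh26 and Diaph2 precedes Pcdh19, and the deposited annotation named none of these 4. Whether the gene set behind the annotation held them is unknown, and their part in the longest distances was not tested.

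Cdh23 and Cdh26 were the genes with 3 or more peaks and none in a repeat. Cdh23, the partner of Pcdh15 in tip links, had 1 peak in intron 3 of 65 at 55.1 kb (score 7.66) and 2 in intron 6 at 99.6 kb (7.66) and 130 kb (7.02). Cdh26 had intergenic peaks at 357 kb (chr3:174326383-174326587, score 8.3), 657 kb (chr3:174626578-174626782, 6.38) and 723 kb (5.75). The nearest iOL peaks stood 10 kb from the 357 kb peak and 1.63 kb from the 657 kb peak.

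Cdh5 and Cdh13 had peaks upstream only. Cdh5, the gene of the endothelial VE-cadherin, had peaks at -53.1 kb (L1_Rat1) and -30.3 kb, each with a score of 7.02. A single iOL peak (chr19:1112507-1112715) lay between them, 14.8 kb from the -53.1 kb peak and 7.97 kb from the -30.3 kb peak. Cdh13, the gene of the membrane-anchored T-cadherin, had peaks at -145 kb and at -11.8 kb (a GT repeat), each with a score of 7.02. Cdh2, the gene of N-cadherin, which is known for contacts of neurons and glia, had 1 peak at -360 kb in an Lx copy (7.02). The Cdh5, Cdh13 and Cdh2 scores were all 1 step below the list median.

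The scores of the family lay in the middle of the list. The median score was 7.66 over the 59 peaks (95% interval of the median from order statistics 7.02 to 7.66) and 7.66 over the 9025 others. It was 7.66 in both protocadherin groups and 7.02 at cadherins, a gap of 1 step. Of the 59, 17 lay above the list median, 15 at it and 27 below.

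**Figure D3:**
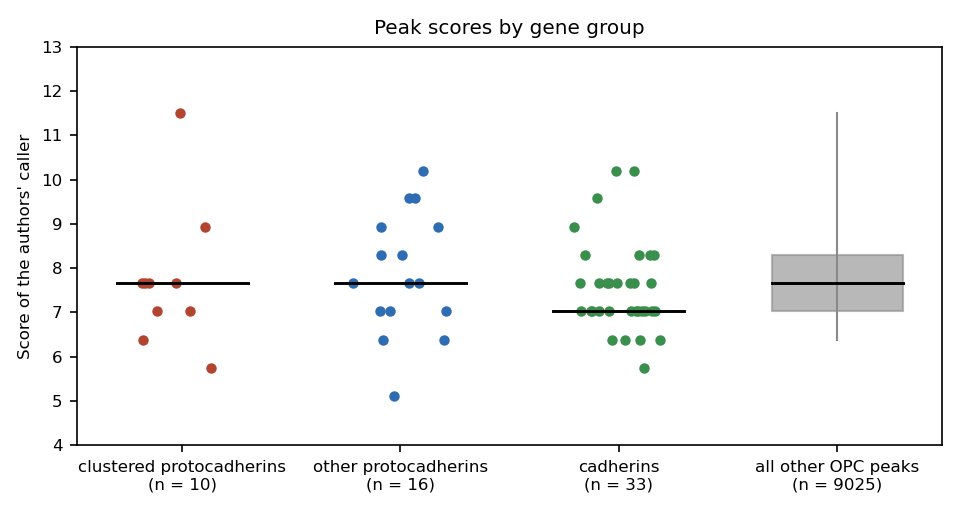
Score of the authors' caller for each OPC peak by gene group, with black lines at the medians; the grey box gives the quartiles of the 9025 other OPC peaks and the thin line their central 95%, from 6.38 to 11.5. The Pcdhga1 peak at 11.5 stands highest among the 59, and the medians of all groups are 7.66 except the cadherins at 7.02.

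Most member peaks lay between genes. Intergenic peaks were 45 of 59 (76.3%, interval 63.4 to 86.4%), against 56.6% of other OPC peaks (55.6 to 57.6%). Introns held 8 (13.6%, 6.04 to 25%), against 29.5%. No member peak was in the promoter class (0 of 59, interval up to 6.06%), against 365 of 9025 (4.04%) and a background of 4.02%. The promoter class depends on its limit, since 4 of the 59 lay within 1 kb downstream of a TSS.

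Distances to a TSS were long outside the clustered group. The median absolute distance was 271 kb (order-statistic interval 117 to 657 kb), against 34.6 kb for other OPC peaks. Without peaks in annotated repeats it was 30.3 kb over 17 member peaks, against 25.1 kb over the list. Repeats are named only between genes or in introns, so the 17 keep the 5 clustered exon peaks and the Cdh3 5' UTR peak. The rest of the 17 lay from 9.58 kb (Cdh3) to 723 kb (Cdh26) from a TSS. The median of 30.3 kb is therefore not that of cadherins and other protocadherins outside repeats. By group it was 10.5 kb for clustered protocadherins, 1720 kb for other protocadherins and 271 kb for cadherins. Peaks at 1 Mb or more numbered 16 of 59 (27.1%, interval 16.4 to 40.3%), against 151 of 9025 (1.67%). These 16, at other protocadherins (9) and cadherins (7), were 9.58% of all annotated OPC peaks that far out. Chromosome 19 alone held 14 of the 59 peaks, at 6 cadherin genes (23.7%, against 3.48% of the annotated list). Since members were chosen by gene name, this share depends on where the genes lie. Downstream of the TSS lay 42 of the 59 (71.2%, interval 57.9 to 82.2%), against 57.5% of other OPC peaks.

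Annotated repeats held 42 of the 59 peaks (71.2%, interval 57.9 to 82.2%), against 33% of other OPC peaks (32 to 34%) and a background of 33.2%. The share was 4 of 10 at clustered protocadherins, 15 of 16 at other protocadherins (93.8%, 69.8 to 99.8%) and 23 of 33 at cadherins (69.7%, 51.3 to 84.4%). The table names repeats only for peaks between genes or in introns, and among these the share was 42 of 53 (79.2%, 65.9 to 89.2%), against 38.3% of 7775 others. LINE-1 copies, remains of a mobile element that spreads through an RNA copy, held 24 (40.7%, interval 28.1 to 54.3%), against 9.45%. RatSatRep2 held 7 (11.9%), against 3.01%.

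Distance moved with these shares, since repeats were also more common among distant peaks of other genes. Among intergenic peaks 100 kb or more from a TSS, repeats held 30 of 35 member peaks (85.7%, interval 69.7 to 95.2%), against 1058 of 1933 others (54.7%, 52.5 to 57%). In the same set LINE-1 copies held 18 of the 35 (51.4%, 34 to 68.6%), against 23.5% (21.7 to 25.5%). The content of repeats in the genome around these genes was not measured, several peaks share a gene, and how reads from repeats were treated is not stated. Their part in these shares was not tested.

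**Figure D4:**
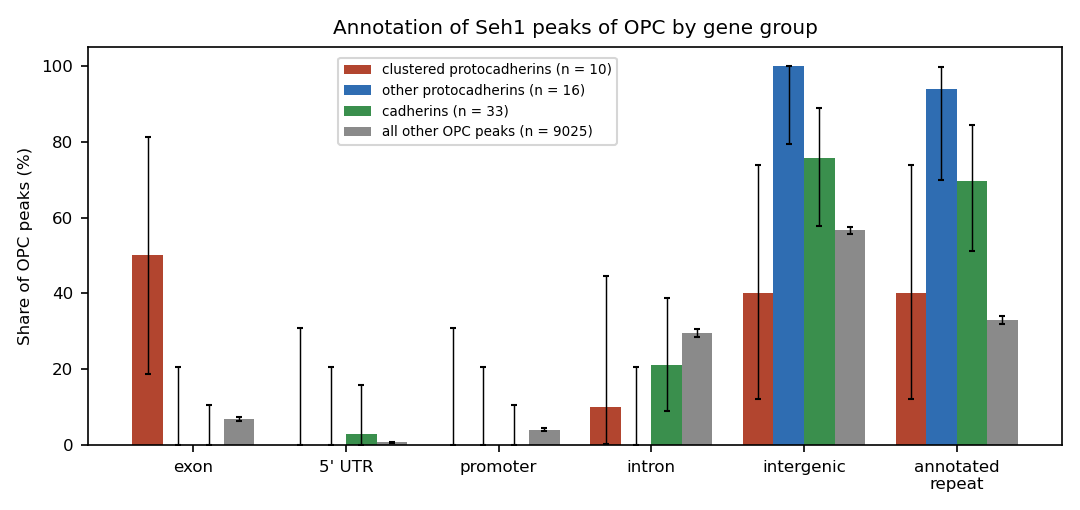
Share in percent of OPC peaks in each annotation class and in annotated repeats, for clustered protocadherins, other protocadherins, cadherins and all other OPC peaks, from left to right; bars are shares and lines exact binomial 95% intervals. Exon peaks are 50% of the clustered group and 0% of the other family groups, and repeats hold 93.8% of peaks at other protocadherins.

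Overlap with iOL was rare among member peaks, as among all OPC peaks. The peaks at Cdh3 and Cdh8 were the 2 of 59 that shared 1 bp or more with an iOL peak (3.39%, interval 0.413 to 11.7%), against 155 of 9025 others (1.72%) and a background of 1.73%. An iOL peak lay within 50 kb, between midpoints, of 11 of 59 (18.6%, 9.69 to 30.9%), against 34.9% of others and a background of 34.8%. By group this was 2 of 10 clustered peaks, 0 of 16 at other protocadherins (interval up to 20.6%) and 9 of 33 at cadherins (27.3%). The median distance to the nearest iOL peak was 225 kb for member peaks and 88 kb for other OPC peaks. Outside annotated repeats the share within 50 kb was 35.3% of 17 member peaks, against 38.3% over the list.

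**Figure D5:**
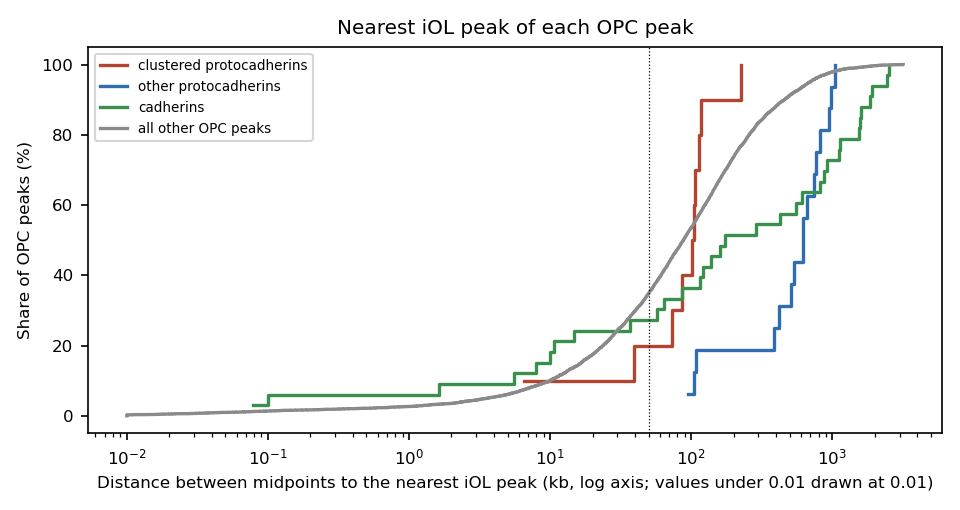
Cumulative share in percent of OPC peaks by the distance in kb, on a log axis, between their midpoint and that of the nearest iOL peak, for the 3 gene groups and all other OPC peaks; the dotted line marks 50 kb. The line of the other protocadherins begins at 95.4 kb, to the right of the 50 kb mark, while 27.3% of cadherin peaks lie left of it.

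The iOL list carries no gene names, so an iOL peak was tied to a gene only where it lay between OPC peaks of that gene, or between such a peak and the TSS their distances place. This was possible for the 16 member genes with 2 or more OPC peaks and gave 23 iOL peaks at 8 genes. Between OPC peaks only, without the TSS, it gave 16 iOL peaks at 8 genes. The intervals of genes with a tied iOL peak ran from 9.58 kb (Cdh3) to 3700 kb (Cdh10), and longer ones can hold more peaks. The same count over all genes was not made, so these numbers have no background. Cdh26 had 8, from 25.8 to 659 kb downstream of its TSS, and Pcdh9 had 6, from -191 kb to 2.67 Mb. Pcdh19 had 3, at 0.274, 0.682 and 2.68 Mb, and Pcdh7 had 2, while Cdh10, Cdh3, Cdh5 and Cdh8 had 1 each. At Pcdh19, 2 of the 3 tied iOL peaks lay nearer to the TSS than any of its OPC peaks.

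Counted by gene, 28 of 76 family genes of the GRCr8 table had an OPC peak (36.8%, interval 26.1 to 48.7%), against a background of 26.8% of 20972 named coding genes. Among genes with a curated transcript it was 28 of 74 (37.8%, 26.8 to 49.9%), against 30.3% of 18496. The share was 7 of 38 for clustered protocadherins (18.4%, 7.74 to 34.3%), where the table lists the alpha genes as a single entry. It was 8 of 12 for other protocadherins (66.7%, 34.9 to 90.1%) and 13 of 26 for cadherins with Celsr genes (50%, 29.9 to 70.1%). A gene in a wide gap between genes is the nearest gene over more genome, and the length of these gaps was not measured on rn6. Genes not named for a peak were Cdh4, Cdh6, Cdh12, Cdh15, Cdh16, Cdh17, Cdh18, Cdh20, Cdh22, Cdh24, Celsr1, Celsr2, Celsr3, Pcdh1, Pcdh10, Pcdh11x, Pcdh12 and 31 clustered genes. The gene set behind the deposited annotation is unknown, and a gene outside it could not be named. This limits what these counts and shares show. Of the 30 genes, 14 had 1 peak and 8 had 2. The other 8 (26.7%) had 3 or more, against 12.9% of all 5796 genes with a peak.

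Genes that work with cadherins were counted in 7 lists, in which 25 of 64 genes had an OPC peak (39.1%). The backgrounds were the same, 26.8% of named coding genes and 30.3% of those with a curated transcript. Of the catenins and plakophilins, which hold the inner ends of cadherins, 5 of 13 had one: the beta-catenin gene Ctnnb1 at 183 kb, Ctnna1 at -33.2 kb, Ctnnd1 at -8.15 kb, Ctnnd2 at -291 kb and Pkp1 in an intron at 16.2 kb. Of the Celsr genes themselves, which are family members, 0 of 3 had one (interval up to 70.8%). Of the planar polarity genes that act with Celsr receptors, 7 of 11 had one. Among these Dvl1 had a promoter peak at -66 bp (score 8.3), the receptor gene Fzd3 an intron peak at 480 bp (10.9) and Prickle2 an intron peak at 284 bp (7.66). Dvl3, Fzd6, Prickle1 and Vangl2 had peaks between 5.63 and 399 kb away.

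Cadherin relatives and regulators made up the other lists. Of the calsyntenins and cadherin-related genes 4 of 8 had a peak: Cdhr1 at its promoter (-40 bp, score 5.75), Clstn1 in an intron at 583 bp (7.66), Clstn2 in an intron at 9.76 kb (6.38) and Clstn3 at -8.82 kb (11.5). Fat and Dachsous cadherins had 2 of 7 (Fat2 and Fat4) and desmosomal cadherins 2 of 7 (Dsc3 and Dsg4). Of the sheddases and protocadherin signalling genes 4 of 8 had a peak, with Cyfip2, of the WAVE actin regulator, at its promoter (-182 bp, 7.02), and Adam10, Nckap1 and Ptk2 at 15.3 to 100 kb. Of the 10 architecture factors that act on protocadherin clusters, the cohesin subunit gene Stag1 alone had a peak, in an intron at 210 kb (7.66), and this peak overlapped an iOL peak.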

How the data were processed

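Seh1 ChIP-seq peak lists of iOL and OPC, with 1 library each, were compared. Per the submitters' processing notes, Bowtie2 and HOMER were used, with the builds rn6 and hg18. Versions, thresholds and the placing of reads with several matches are unknown. The authors deposited peak positions (start and end) for both libraries and 1 annotated table. It is recorded under iOL, but per the file headers it came from annotatePeaks.pl on rn6 for Seh1 in OPC with the IgG of iOL, and all 9084 of its intervals equal OPC intervals and 0 equal iOL intervals. It was therefore used for OPC; 33 OPC peaks have no annotation. The deposited table gives a score per peak and a fraction from 0 to 1, the caller's focus ratio, which was not used further; distances to a TSS are the authors', in bp. The depth is unknown.

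Members were found by gene name, and overlap meant at least 1 bp. Medians, shares and exact intervals were computed with Python 3.11.15, pandas 2.3.3, numpy 2.4.6 and scipy 1.17.1, and the overlap step was tested on simulated data. Genes were matched by numeric ID to a GRCr8 table (94.9% of member peaks, 99.2% of the annotated list), used for names and gene order. Values were printed for member genes with a peak in an exon, UTR, promoter or TTS class, within 5 kb of a TSS or within 50 kb of an iOL peak, with a top 10 score, with 3 or more peaks, or nearest a TSS in their group. The others were named within their group with a distance and, for most, a score. The members and gene lists were chosen with earlier results of these data known, and the 9-letter promoter run after its promoters had been read. Alternatives were other score, repeat, distance and overlap limits, gene matching by ID, leaving out the clustered genes and, chosen after seeing the data, genes with a curated transcript.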

Additional observations from a re-analysis of the deposited data

How the results depend on the processing

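Of 28 alternative values 18 stayed within their limits and 10 moved. The 59 member peaks were 32 at a score at or above the list median, 17 without peaks in annotated repeats and 13 within 50 kb of a TSS. The 28 family genes with a peak were 12 without repeats and 11 within 50 kb of a TSS. These counts are lower by construction, since each limit removes peaks. Without repeats the median distance was 30.3 kb, against 25.1 kb over the list, and the share with an iOL peak within 50 kb was 35.3%, against 38.3%. The member peaks left include all exon and 5' UTR peaks, for which no repeat is named. With promoters taken as any peak within 1000 bp of a TSS, the share was 6.78% (9.47% over the list), and within 3000 bp 10.2% (13.8%). The median score was 8.3 among peaks at or above the list median, by construction. The overlap with iOL was 5.88% without repeats, which is 1 of 17 member peaks (1.09% over the list), 3.12% at a score at or above the list median (2.78%) and 3.39% with midpoints within 1 kb (2.68%). No replicate could be left out and no paired analysis was possible because each stage had 1 Seh1 library. The unknown depth limits what the absence of a peak shows.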
